A study of Rattus norvegicus with 20 samples.

Results

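The genes described here are the collagens and the matrix proteoglycans and glycoproteins of the rat ovary. They were chosen by name: every rat gene whose symbol has the form Col, number, a, number and that has a transcript on the array, plus biglycan (Bgn), decorin (Dcn), lumican (Lum), fibromodulin (Fmod), osteoglycin (Ogn), Sparc, fibronectin (Fn1), periostin (Postn), fibrillin 1 (Fbn1) and elastin (Eln). Of 44 collagen symbols in the gene table, 22 had a probe matched to them through that table, and on 4 or more of the 20 arrays all 22 were well above background. With the other 10 genes, all of them measured, this gave 32 genes out of 12452 measured by name in the series. They fell into 8 fibrillar collagens (Col1a1, Col1a2, Col2a1, Col3a1, Col5a1, Col5a3, Col11a1 and Col11a2), 2 basement membrane collagens (Col4a1 and Col4a4), 12 other collagens and the 10 non-collagen genes. Col4a2, Col6a1 and the other collagens without a matched probe were not analysed here. The gene table gave no symbol for 11590 probes, and whether any of them reads these collagens was not examined. Each gene was read from its brightest probe, 21 genes having 1 probe and 11 having more, and 29 of the 32 were above background on all 20 arrays. Col9a2 and Col26a1 were above background on 17 arrays and Postn on 19.

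Collagens are matrix proteins whose chains wind around each other into a helix. Fibrillar collagens, chiefly types I and III, are trimmed outside the cell and packed into the fibres that give connective tissue its strength. Type IV collagens form the sheet-like network of basement membranes, and the remaining types decorate fibres, link them to basement membranes or span the cell membrane. Small leucine-rich proteoglycans such as biglycan, decorin, lumican and fibromodulin bind collagen and govern how fibres assemble. In the ovary, fibrillar collagens are found mainly in the stroma, the theca and the outer capsule, the tunica albuginea. Basement membrane collagens surround follicles and vessels, and both are rebuilt as follicles grow, rupture and form corpora lutea.

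The samples were whole ovaries of female Sprague-Dawley rats on postnatal day 46. Their dams had brominated flame retardants mixed into their feed from at least 1 week before mating until weaning on postnatal day 21, so the daughters were exposed through the dam before birth and up to weaning. DE-71 made up 52.1% of the mixture, BDE-209 44.2% and DE-79 0.4%, all of them polybrominated diphenyl ether products. Hexabromocyclododecane (HBCD) made up the other 3.3%. The control feed held none of it (0 mg/kg/day, n = 5). Feed with 0.75 mg of it per kg was set for a nominal 0.06 mg/kg/day (n = 4), feed with 250 mg for 20 mg/kg/day (n = 5) and feed with 750 mg for 60 mg/kg/day (n = 6). Per the series' design text the animals of a group came from separate litters, so p-values measure the spread between animals. The submitters left out a further animal of the 0.06 mg/kg/day group as an outlier, and it is not analysed here. Doses are the dam's, and the sources used here give neither the daughters' own intake nor their cycle stage. The comparisons ask whether the dam's exposure changed these genes' RNA in the daughter's ovary, at each dose and in dose order.

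Each array gave 1 value per probe, the log2 of its processed signal minus the log2 of that array's 75th percentile, so 0 is the level of the 75th percentile and a difference of 1 is a doubling. All levels and differences below are on this log2 scale unless a fold is named. Between 74.8% and 83.4% of spots were well above background, none was saturated, and the 75th percentile itself lay between 1158 and 1737 signal units. The arrays lay on 3 slides, each holding animals of all 4 doses. Of the markers of an ovary, all 9 measured for granulosa cells, all 6 for steroid cells and 4 of 5 for oocytes were above background on all 20 arrays, and Bmp15, the other oocyte gene, on 19. On 5 arrays (0 mg/kg/day replicate 3, 0.06 mg/kg/day replicate 1, 20 mg/kg/day replicates 2 and 5, and 60 mg/kg/day replicate 5) Cyp17a1, a theca cell enzyme needed to make androgens, stood between -3.52 and -2.62, against 1.71 to 3.86 on the other 15 arrays. Those 5 arrays span all 4 groups, and the counts at each dose against 0 mg/kg/day are also given below without them. Whole ovaries were measured, so fewer cells of a type and less RNA per cell cannot be told apart.

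No collagen or matrix gene passed the test at any dose. A limma fit over all 23258 probes called 0 of the 32 genes, and 0 probes in all (0% called), at an adjusted p under 0.05 in each comparison with 0 mg/kg/day. The statements that follow describe sizes, directions and unadjusted p-values. At 20 mg/kg/day 7 of the 32 genes had an unadjusted p under 0.05, and all 7 lay higher than at 0 mg/kg/day. They were Col1a1, Col1a2 and Col3a1 among the fibrillar collagens, Col8a1, Col15a1 and Col16a1 among the other collagens, and Bgn. Over all probes, 2.70% had such a p with a higher value and 4.55% in either direction. In the same comparison 25 of the 32 genes lay above the 0 mg/kg/day mean, where 57.9% of all probes did. At 60 mg/kg/day 3 genes (Bgn, Col8a1 and Col15a1) had an unadjusted p under 0.05, all higher, against 2.82% of probes, and 19 of 32 lay above the 0 mg/kg/day mean, against 39.8%. With slide as a block, Bgn kept an unadjusted p under 0.05 at 60 mg/kg/day (0.0487), while Col8a1 (0.0535) and Col15a1 (0.0882) did not. Under that block Col9a1, which lay lower, had such a p as well (-0.18, limma unadjusted p = 0.0240). At 0.06 mg/kg/day 1 gene had such a p, Fn1, which lay lower; 1.63% of probes did so, and 10 of 32 genes lay above the mean at 0, against 43.7%.

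Type I collagen is the main fibrillar collagen of most tissues and is built from the products of Col1a1 and Col1a2. Col1a2 measured 5.38, 5.53, 5.78, 5.35 and 5.68 in the 5 ovaries at 0 mg/kg/day, 5.91, 5.13, 5.86 and 5.10 in the 4 at 0.06, 5.93, 6.12, 6.11, 5.84 and 6.17 in the 5 at 20, and between 5.44 and 5.97, with a median of 5.82, in the 6 at 60. All 5 values at 20 mg/kg/day lay above all 5 at 0, and the 0.06 group split into 2 higher and 2 lower arrays. The difference between 20 and 0 mg/kg/day was 0.49 ± 0.16 (SE), a fold of 1.40 with a 95% interval of 1.12 to 1.76 (limma unadjusted p = 0.00592, adjusted p = 0.928). Between 60 and 0 mg/kg/day it was 0.24 ± 0.15, with 4 of 6 arrays above all controls.

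Col1a1 measured 3.93, 4.02, 4.71, 3.78 and 4.29 at 0 mg/kg/day, 4.93, 3.83, 4.67 and 3.61 at 0.06, 4.82, 5.15, 5.17, 4.31 and 5.30 at 20, and 3.93 to 5.20, median 4.55, at 60. At 20 mg/kg/day 4 of 5 arrays lay above all controls; replicate 4, at 4.31, lay inside the control range, whose top is replicate 3. The difference between 20 and 0 mg/kg/day, 0.80 ± 0.27, was a fold of 1.75 with a 95% interval of 1.18 to 2.59 (limma unadjusted p = 0.00825, adjusted p = 0.928). It was the largest difference among the 32 genes in this comparison. At 60 mg/kg/day the difference was 0.41 ± 0.26 (unadjusted p = 0.13), and its groups overlapped. A second probe of Col1a1 differed by 0.64 between 20 and 0 mg/kg/day (unadjusted p = 0.00894).

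Col3a1 encodes type III collagen, which forms fibres together with type I in soft tissues. It measured 4.21, 3.99, 4.24, 3.64 and 4.01 at 0 mg/kg/day, 4.54, 3.11, 4.32 and 3.65 at 0.06, 4.38, 4.66, 4.54, 4.33 and 4.30 at 20, and 4.10 to 4.54, median 4.32, at 60. Every array at 20 mg/kg/day and 5 of 6 at 60 lay above the highest control, by small margins, and the 0.06 group held both the lowest value of the series and one of the highest. The difference was 0.42 ± 0.20 between 20 and 0 mg/kg/day (fold 1.34, 95% interval 1.00 to 1.80; limma unadjusted p = 0.0491, adjusted p = 0.928) and 0.31 ± 0.19 between 60 and 0. The 4 genes with all 5 arrays at 20 mg/kg/day above all 5 controls were Col1a2, Col3a1, Col15a1 and Bgn, where 0.365% of all probes showed this, and 0 members showed it at 0.06 or 60 mg/kg/day, where 0.310% and 0.215% of probes did.

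**Figure D1:**
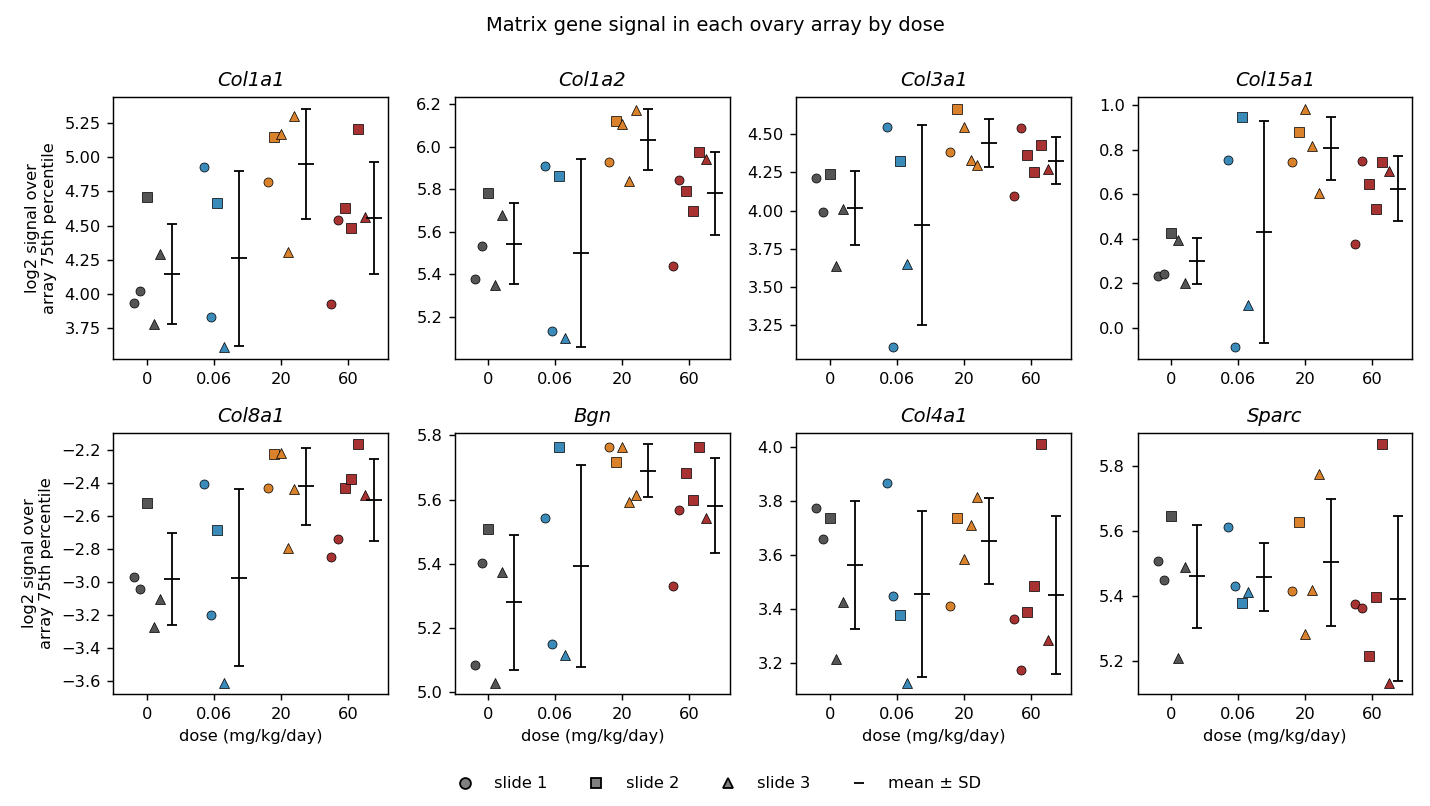
Level of 8 genes on each array (log2 signal over the array's 75th percentile, vertical axis) by dose in mg/kg/day (horizontal axis); marker shapes are slides, bars are the group mean ± SD. Col1a2, Col3a1, Col15a1 and Bgn show no overlap between 20 and 0 mg/kg/day, while Col4a1 and Sparc overlap at every dose.

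The remaining fibrillar collagens showed smaller differences. Col5a1, whose product sits inside type I fibres and limits their width, differed by 0.28 ± 0.19 between 20 and 0 mg/kg/day and 0.23 ± 0.18 between 60 and 0. Col11a1, a related fibre-nucleating chain, differed by 0.14 ± 0.19 and 0.16 ± 0.18 in the same comparisons, and Col5a3 by 0.15 ± 0.34 and -0.13 ± 0.32. Col11a2 and Col2a1, chains best known from cartilage, differed by -0.39 ± 0.40 and 0.07 ± 0.22 at 20 mg/kg/day. In all, 7 of the 8 fibrillar genes lay above the 0 mg/kg/day mean at 20, 5 at 60 and 1 at 0.06. Col2a1, one of the 7 at 20 mg/kg/day, lay lower than the controls within every slide.

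The DNA just upstream of the genes is shown for 4 collagens of unadjusted p under 0.05 at 20 mg/kg/day and for Col4a1, which had none, so that the letters can be set beside the values. RefSeq promoter windows of the GRCr8 assembly were found for 23 of the 32 genes. Each sequence is the 250 bases before the annotated start on the plus strand, read 5′ to 3′, at chr4:33518307-33518556 for Col1a2, chr11:56246532-56246781 for Col8a1, chr5:66297296-66297545 for Col15a1, chr5:147672846-147673095 for Col16a1 and chr16:84885347-84885596 for Col4a1. Capitals mark matches, on either strand, to the CCAAT box (CCAAT or ATTGG), the GC box (GGGCGG or CCGCCC) and the TATA box (TATAAA or TTTATA).
Col1a2: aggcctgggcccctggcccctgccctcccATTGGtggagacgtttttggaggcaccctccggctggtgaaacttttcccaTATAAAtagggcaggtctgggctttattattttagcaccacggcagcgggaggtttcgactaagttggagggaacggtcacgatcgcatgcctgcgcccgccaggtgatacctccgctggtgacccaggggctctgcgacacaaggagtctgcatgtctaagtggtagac
Col8a1: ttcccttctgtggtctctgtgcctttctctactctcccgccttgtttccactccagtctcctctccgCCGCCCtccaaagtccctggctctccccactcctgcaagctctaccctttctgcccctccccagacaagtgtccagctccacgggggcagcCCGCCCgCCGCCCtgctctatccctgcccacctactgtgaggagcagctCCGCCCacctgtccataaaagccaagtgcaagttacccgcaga
Col15a1: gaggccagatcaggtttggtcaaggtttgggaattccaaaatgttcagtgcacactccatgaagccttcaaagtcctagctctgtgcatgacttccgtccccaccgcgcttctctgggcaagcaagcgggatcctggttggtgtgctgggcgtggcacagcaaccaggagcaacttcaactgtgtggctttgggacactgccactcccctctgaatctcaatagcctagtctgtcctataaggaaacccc
Col16a1: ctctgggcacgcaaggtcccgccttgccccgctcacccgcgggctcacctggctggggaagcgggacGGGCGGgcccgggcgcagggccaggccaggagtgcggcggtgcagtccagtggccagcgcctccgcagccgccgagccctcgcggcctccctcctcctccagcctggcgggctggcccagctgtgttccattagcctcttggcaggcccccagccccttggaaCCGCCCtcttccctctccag
Col4a1: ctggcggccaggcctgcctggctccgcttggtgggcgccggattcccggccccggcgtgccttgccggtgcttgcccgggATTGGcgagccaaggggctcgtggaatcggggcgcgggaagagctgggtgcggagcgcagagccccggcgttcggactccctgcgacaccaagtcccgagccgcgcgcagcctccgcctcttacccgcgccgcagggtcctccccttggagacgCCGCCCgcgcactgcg
Col1a2 held a CCAAT box on the opposite strand and a TATA box, Col8a1 held 4 GC boxes, Col16a1 held 2 GC boxes, Col4a1 held 1 CCAAT box and 1 GC box, and Col15a1 held no match. None of the matches overlapped another. Among the windows of the 23 genes, 6 held a CCAAT box, 11 a GC box and 4 a TATA box; among all 33469 windows of the same length the shares were 34.0%, 30.5% and 12.9%. The 4 collagens of unadjusted p under 0.05 shown here had no motif in common to all of them. The other 3 such genes were Col1a1, Col3a1 and Bgn, which are not shown. A match is a run of letters and not a measured binding site.

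Neither type IV collagen gene had an unadjusted p under 0.05 at any dose. Col4a1, which with its neighbour Col4a2 encodes the common basement membrane collagen, measured 3.77, 3.66, 3.74, 3.22 and 3.43 at 0 mg/kg/day, 3.87, 3.45, 3.38 and 3.13 at 0.06, 3.41, 3.74, 3.59, 3.71 and 3.82 at 20, and 3.17 to 4.01, median 3.38, at 60. The 4 groups overlapped over nearly their whole ranges. The difference was 0.09 ± 0.16 between 20 and 0 mg/kg/day, with a 95% interval of -0.24 to 0.42 (unadjusted p = 0.58), and -0.11 ± 0.15 between 60 and 0. A second probe gave 0.24 at 20 mg/kg/day (unadjusted p = 0.108).

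Col4a4 encodes a chain of the specialised basement membranes known from kidney. It measured -2.92, -2.91, -3.58, -2.78 and -2.78 at 0 mg/kg/day, -3.70, -2.88, -3.48 and -2.52 at 0.06, -3.24, -3.58, -3.13, -2.57 and -3.35 at 20, and -3.94 to -2.38, median -3.38, at 60. The 60 mg/kg/day group spanned more than the whole control range. Its differences were -0.15 ± 0.32 at 0.06 mg/kg/day, -0.18 ± 0.30 at 20 and -0.22 ± 0.29 at 60, each against 0, each smaller than its error.

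The clearest values among the other collagens were those of Col15a1 and Col8a1. Col15a1 encodes a multiplexin that joins basement membranes to the fibres around them. It measured 0.24, 0.24, 0.43, 0.40 and 0.20 at 0 mg/kg/day, 0.75, -0.09, 0.95 and 0.10 at 0.06, 0.75, 0.88, 0.98, 0.82 and 0.61 at 20, and 0.38 to 0.75, median 0.68, at 60. Controls were tight (SD 0.10), all 5 arrays at 20 mg/kg/day and 5 of 6 at 60 lay above them, and the 0.06 group split into 2 high and 2 low arrays. The difference was 0.51 ± 0.15 between 20 and 0 mg/kg/day (fold 1.42, 95% interval 1.13 to 1.78; limma unadjusted p = 0.00415, adjusted p = 0.928) and 0.33 ± 0.15 between 60 and 0 (unadjusted p = 0.0409, adjusted p = 0.785).

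Col8a1 encodes a short-chain collagen of vessel walls and other matrices. It measured -2.97, -3.04, -2.52, -3.27 and -3.10 at 0 mg/kg/day, -2.40, -3.20, -2.68 and -3.61 at 0.06, -2.43, -2.22, -2.21, -2.79 and -2.43 at 20, and -2.85 to -2.16, median -2.45, at 60. At 20 mg/kg/day 4 of 5 arrays and at 60 4 of 6 lay above all controls, the highest control being replicate 3. The difference was 0.56 ± 0.20 between 20 and 0 mg/kg/day (fold 1.48, 95% interval 1.1 to 1.98; limma unadjusted p = 0.0116, adjusted p = 0.928) and 0.48 ± 0.19 between 60 and 0 (fold 1.39; unadjusted p = 0.0228, adjusted p = 0.785).

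Col16a1, Col14a1, Col9a1 and Col9a2 belong to the FACIT group, which sits on the surface of fibres. Col16a1 measured 1.73, 1.87, 2.47, 2.19 and 2.17 at 0 mg/kg/day, 2.35, 1.60, 2.38 and 1.79 at 0.06, 2.48, 2.77, 2.56, 2.12 and 2.63 at 20, and 1.85 to 2.57, median 2.37, at 60. At 20 mg/kg/day 4 of 5 arrays lay above all controls, 1 of them by only a small margin. The difference was 0.43 ± 0.18 between 20 and 0 mg/kg/day (fold 1.34; unadjusted p = 0.0276, adjusted p = 0.928) and 0.23 ± 0.17 between 60 and 0.

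Col14a1 differed by 0.39 ± 0.19 between 20 and 0 mg/kg/day (unadjusted p = 0.0591), with 4 of 5 arrays above all controls, and a second probe by 0.42 (unadjusted p = 0.039). Col9a1 differed by 0.04 ± 0.19 at 20 mg/kg/day and by -0.32 ± 0.18 at 60 (unadjusted p = 0.0986), and Col9a2 by 0.00 ± 0.26 and -0.22 ± 0.25. With slide as a block, Col9a1 differed by -0.08 at 20 mg/kg/day and by -0.18 at 60 (limma unadjusted p = 0.0240 at 60). Col9a1 and Col9a2 encode chains of type IX collagen, which is best known from cartilage.

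Col18a1, the other multiplexin and the source of endostatin, differed by 0.55 ± 0.43 between 20 and 0 mg/kg/day, and Col7a1, which makes anchoring fibrils, by 0.76 ± 0.57. Both had wide spreads at 0 mg/kg/day, with SDs of 0.91 for Col18a1 and 1.08 for Col7a1. Col6a2, a chain of the beaded filaments of type VI collagen, differed by 0.15 ± 0.14 at 20 mg/kg/day and 0.10 ± 0.14 at 60. The membrane-spanning collagen genes Col13a1 and Col23a1 differed by -0.19 ± 0.33 and 0.19 ± 0.20 at 20 mg/kg/day. Col26a1 differed by -0.72 ± 0.38 (unadjusted p = 0.0757), but its second probe gave 0.51, the opposite direction, and its brightest probe was above background on only 17 arrays. Of the 12 other probes of members with several, 11 had the sign of the brightest at 20 mg/kg/day.

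Among the small leucine-rich proteoglycans Bgn had the smallest p-values at 20 and 60 mg/kg/day. Biglycan binds type I collagen and growth factors of the TGF-beta family. Bgn measured 5.09, 5.40, 5.51, 5.03 and 5.37 at 0 mg/kg/day, 5.54, 5.15, 5.76 and 5.12 at 0.06, 5.76, 5.72, 5.76, 5.59 and 5.61 at 20, and 5.33 to 5.76, median 5.58, at 60. All 5 arrays at 20 mg/kg/day and 5 of 6 at 60 lay above the highest control. The difference was 0.41 ± 0.13 between 20 and 0 mg/kg/day (fold 1.33, 95% interval 1.11 to 1.60; limma unadjusted p = 0.00427, adjusted p = 0.928) and 0.30 ± 0.12 between 60 and 0 (fold 1.23; unadjusted p = 0.0219, adjusted p = 0.785). Its second probe differed by 0.35 at 20 mg/kg/day (unadjusted p = 0.0202).

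Decorin, the closest relative of biglycan, had smaller differences. Dcn measured 2.22, 2.36, 2.47, 2.54 and 2.86 at 0 mg/kg/day, 2.40, 2.09, 2.74 and 2.28 at 0.06, 2.77, 2.87, 2.82, 2.56 and 2.38 at 20, and 2.28 to 3.06, median 2.56, at 60. The groups overlapped, and the differences were 0.19 ± 0.15 at 20 mg/kg/day and 0.11 ± 0.15 at 60. Lum measured -0.34, 0.05, 0.49, -0.23 and 0.31 at 0 mg/kg/day, 0.55, -0.57, 0.73 and -0.18 at 0.06, 0.64, 0.83, 1.04, -0.18 and 0.39 at 20, and 0.11 to 0.93, median 0.29, at 60. For Lum 3 of 5 arrays at 20 mg/kg/day lay above all controls and 1, replicate 4, lay near the lowest of them (difference 0.49 ± 0.26, unadjusted p = 0.0769). Fmod differed by -0.06 ± 0.28 and Ogn by -0.15 ± 0.28 at 20 mg/kg/day.

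Fibronectin is a cell-binding glycoprotein of early matrix, and its gene was the only member with an unadjusted p under 0.05 at the lowest dose. Fn1 measured 1.86, 1.40, 1.1, 2.13 and 1.64 at 0 mg/kg/day, 1.29, 1.06, 1.31 and 1.18 at 0.06, 1.49, 1.48, 1.68, 1.49 and 1.36 at 20, and 1.14 to 1.65, median 1.43, at 60. The controls spanned all other groups but 1 array at 0.06 mg/kg/day, and control replicate 3 lay inside the 0.06 range. The difference was -0.41 ± 0.16 between 0.06 and 0 mg/kg/day (limma unadjusted p = 0.0197, adjusted p = 0.999), -0.12 ± 0.15 between 20 and 0, and -0.21 ± 0.15 between 60 and 0. A second probe gave -0.41 at 0.06 mg/kg/day, -0.07 at 20 and -0.35 at 60 (limma unadjusted p = 0.0351 at 0.06 and 0.0435 at 60).

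Sparc binds collagen and helps it leave the cell and assemble. It measured 5.51, 5.45, 5.65, 5.21 and 5.49 at 0 mg/kg/day, 5.61, 5.43, 5.38 and 5.41 at 0.06, 5.42, 5.63, 5.29, 5.42 and 5.78 at 20, and 5.13 to 5.87, median 5.37, at 60. No group stood apart, and the difference at 20 mg/kg/day was 0.04 ± 0.13 with a 95% interval of -0.22 to 0.31. Among the elastic fibre genes, Eln differed by 0.31 ± 0.25 and Fbn1, the microfibril scaffold, by 0.21 ± 0.14 at 20 mg/kg/day. Postn, a matricellular gene expressed by fibroblasts, differed by 0.70 ± 0.43 at 20 mg/kg/day (unadjusted p = 0.125).

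**Figure D2:**
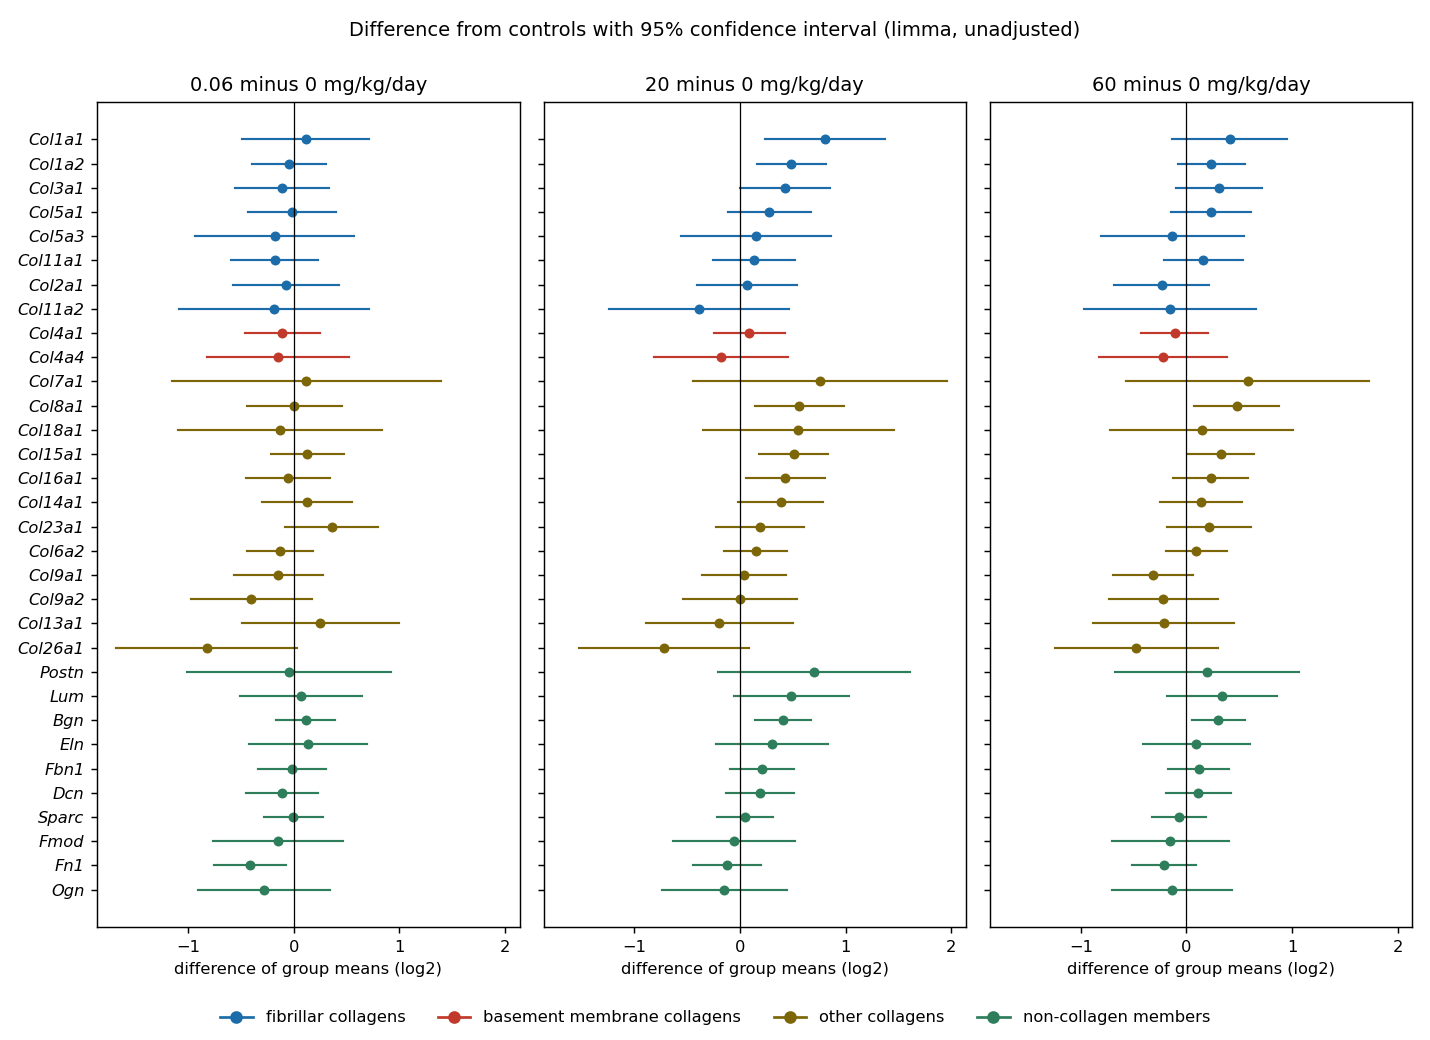
Difference from 0 mg/kg/day of each of the 32 genes (log2, horizontal axis) at 0.06, at 20 and at 60 mg/kg/day in 3 panels, with 95% intervals; genes are grouped by class. At 20 mg/kg/day the intervals of 7 genes lie above 0 and none lies below, and at 60 mg/kg/day those of Bgn, Col8a1 and Col15a1 do.

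The group means of most members did not rise over the full dose order. Of the 32 genes, 19 lay above the control mean at both 20 and 60 mg/kg/day, 7 lay below it at both, and 6 lay above it at 20 and below it at 60. Of all 32 genes, 27 lay lower at 60 than at 20 mg/kg/day. The median difference of the 32 genes was -0.12, beside -0.05 for all probes, so most probes also lay lower. Above the control mean lay 57.9% of all probes at 20 mg/kg/day and 39.8% at 60. The share of all probes was not counted for the 27 genes or for the 19, 7 and 6. Whether these counts stand out from other genes is therefore not known. Compared directly, 0 of 32 genes differed between 60 and 20 mg/kg/day at an unadjusted p under 0.05, where 5.66% of all probes did; the smallest p was that of Col9a1 (difference -0.35, unadjusted p = 0.0668, adjusted p = 0.781). These comparisons share arrays: those with 0 mg/kg/day share the 5 controls, and those with 20 mg/kg/day share its 5 arrays.

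Against 0.06 mg/kg/day, the same 7 genes lay higher at 20 with an unadjusted p under 0.05, where 1.91% of probes did, and 28 of 32 lay above the 0.06 mean, against 62.5% of probes. Between 60 and 0.06 mg/kg/day Col8a1 alone did so (difference 0.47, unadjusted p = 0.0339), where 0.989% of probes did. In the test of order over the 4 doses the same 7 genes had a positive slope with an unadjusted p under 0.05, where 3.01% of probes did. The smallest was that of Col8a1, 0.20 ± 0.06 per step of the dose order, with an unadjusted p of 0.00453, followed by Bgn (0.00584) and Col15a1 (0.0103). In the joint test of all doses 5 genes had an unadjusted p under 0.05, Col1a2, Col8a1, Bgn, Col15a1 and Col1a1, where 3.15% of probes did. The lowest adjusted p of any member was 0.951 in that test.

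Set side by side, the classes had median differences of -0.09 at 0.06, 0.21 at 20 and 0.20 at 60 mg/kg/day for the 8 fibrillar collagens, and of -0.13, -0.05 and -0.17 for the 2 basement membrane collagens. The 12 other collagens had medians of -0.02, 0.29 and 0.14 and the 10 non-collagen genes of -0.03, 0.20 and 0.10 at the same doses. The median of all probes was -0.03, 0.03 and -0.04. With Col15a1 and Col18a1, which some classifications place at basement membranes, counted among the basement membrane collagens, that class's median at 20 mg/kg/day was 0.30, above the fibrillar one. At 20 mg/kg/day 7 of 8 fibrillar, 1 of 2 basement membrane, 10 of 12 other collagen and 7 of 10 non-collagen genes lay above the 0 mg/kg/day mean. These counts include Col2a1 and Col9a1, which lay lower within every slide. With only 2 basement membrane genes measured, the difference between classes was not tested, and members of a class share arrays and are not replicates of it. The fibrillar median at 20 mg/kg/day was -0.01 within slide 2, which holds 1 array of each of these groups, and 0.36 within slide 3.

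Some members followed the Cyp17a1 split across the doses. On the 5 arrays lowest for Cyp17a1, Col18a1 lay between 2.46 and 3.35, above the 0.64 to 2.42 of the other 15. Col7a1 lay between -0.45 and 0.02 there and between -3.44 and -0.83 elsewhere, and Col5a3 between -0.26 and 0.19 there and between -1.78 and -0.47 elsewhere. Sparc also had its 5 highest values on these arrays, 5.61 to 5.87 against 5.13 to 5.51, and Col11a2 its 5 lowest, -3.89 to -3.09 against -2.87 to -1.50. Col1a1, Col5a1, Col4a1, Eln and Fbn1 had 4 of their 5 highest values there, and Col11a1 had 4 of its 5 lowest. This is an order of arrays, described without a test. Over all 12452 genes, 3.54% lay above and 1.83% below the other 15 on all 5 arrays, and 4 and 1 of the 32 members did. No such share was counted for genes with 4 of their 5 highest or lowest values there. Whether those members stand out from other genes is therefore not known.

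**Figure D3:**
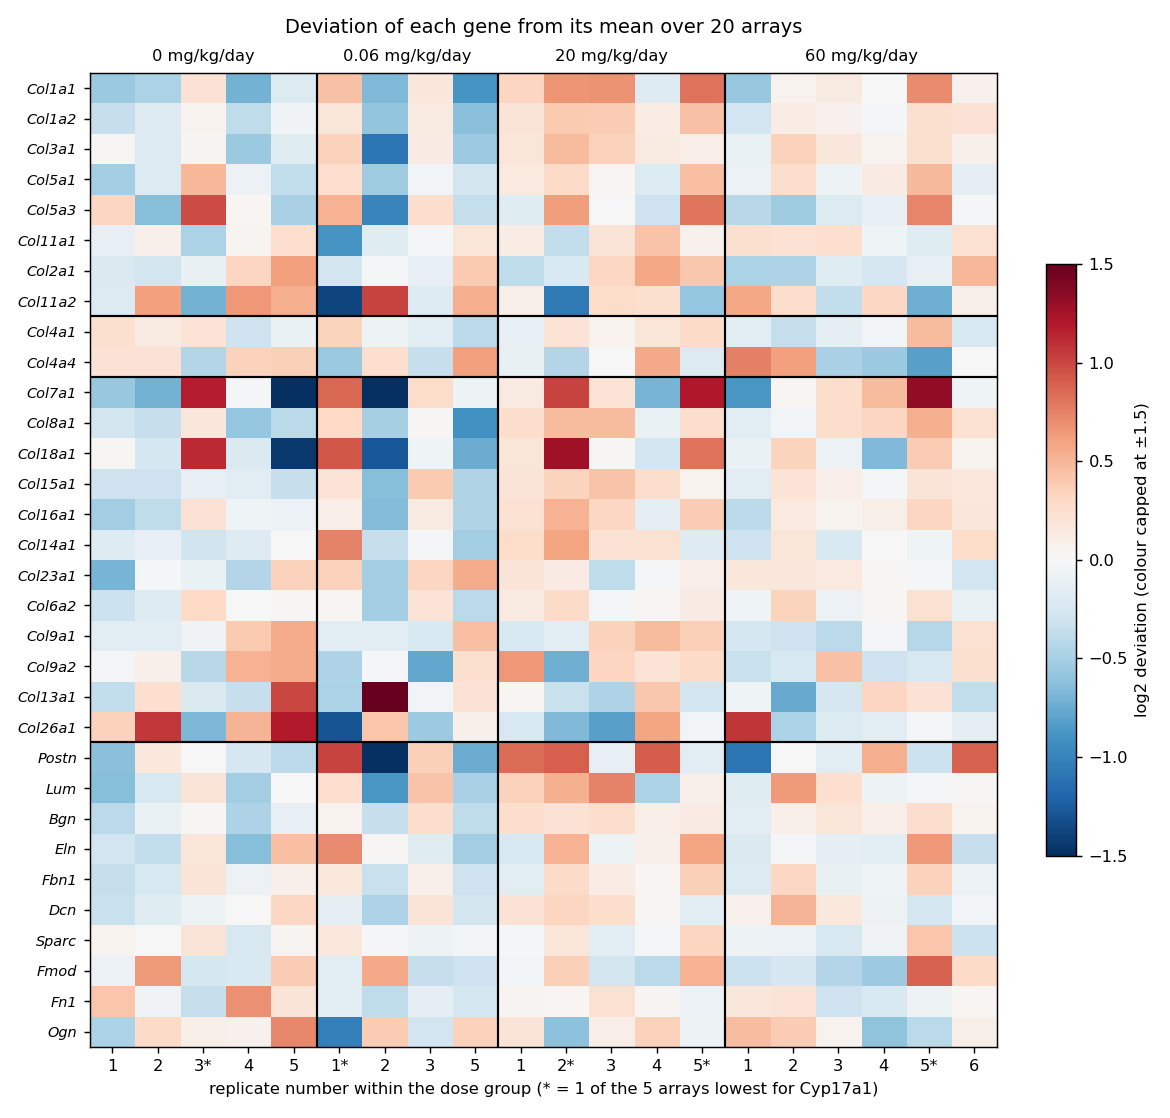
Deviation of each gene (down the page) from its mean over the 20 arrays (log2, colour scale) on each array (across), ordered by dose; a star marks the 5 arrays lowest for Cyp17a1. Col18a1, Col7a1 and Col5a3 are high on the starred arrays of every dose. Col1a1 and Bgn are high on most arrays at 20 mg/kg/day, starred or not. The highest Col1a1 value of each dose is on a starred array.

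**Figure D4:**
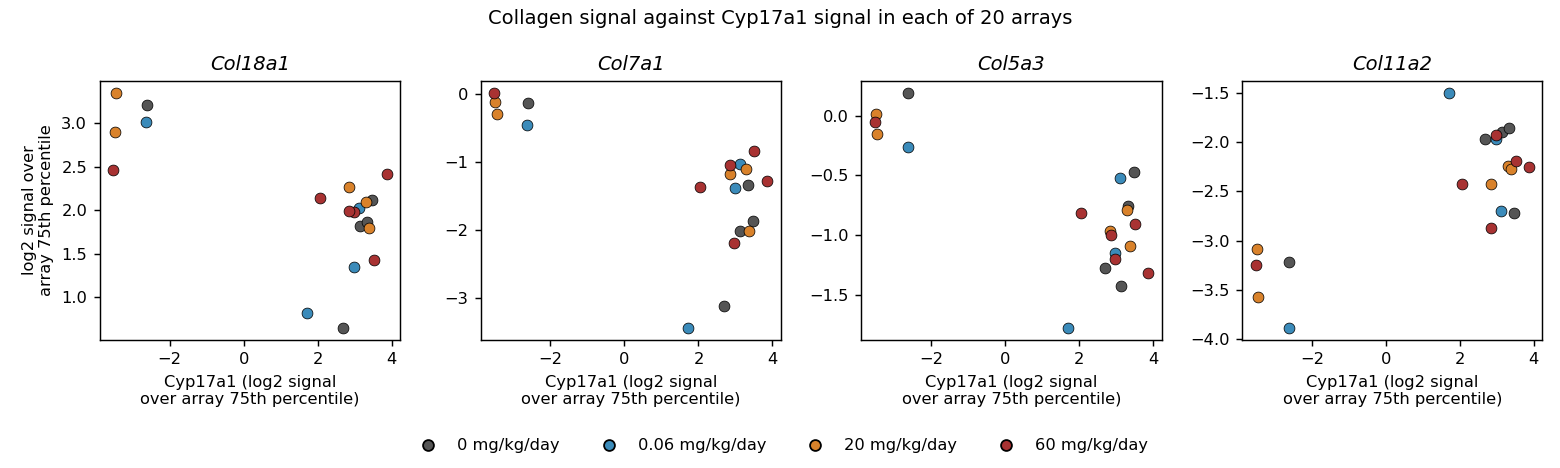
Level of Col18a1, Col7a1, Col5a3 and Col11a2 (vertical axes) against Cyp17a1 (horizontal axes), both as log2 signal over the array's 75th percentile, 1 point per array coloured by dose. The 5 arrays lowest for Cyp17a1, at -3.52 to -2.62, hold the 5 highest values of the first 3 genes and the 5 lowest of Col11a2.

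Without these 5 arrays, a choice made after seeing the data, 0 members were called after adjustment at 0.06, 20 or 60 mg/kg/day. At 20 against 0 mg/kg/day (3 against 4 arrays) 7 members had an unadjusted p under 0.05, where 4.45% of all probes did in the same fit. Col1a2, Col1a1, Col14a1, Col15a1, Col8a1 and Bgn lay higher and Col26a1 lower. The differences were 0.47 for Col1a2, 0.76 for Col1a1, 0.58 for Col15a1, 0.62 for Col8a1 and 0.48 for Bgn, each within 0.1 of its value with all arrays. Col3a1 (0.46, unadjusted p = 0.0643) and Col16a1 (0.40, unadjusted p = 0.0686) no longer had a p under 0.05. The 3 arrays lay above all 4 controls for 7 members, where 2.72% of probes did, and 25 of 32 members lay above the 0 mg/kg/day mean, against 58.5% of probes.

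At 60 against 0 mg/kg/day (5 against 4 arrays) 5 members had an unadjusted p under 0.05 without those arrays, where 7.65% of probes did. Col5a1, Col8a1 and Bgn lay higher, while Col26a1 (-0.76, unadjusted p = 0.0476) and Fn1 (-0.34, unadjusted p = 0.0434) lay lower. Col15a1 no longer had a p under 0.05 there (0.33, unadjusted p = 0.0714), and 19 of 32 members lay above the 0 mg/kg/day mean, against 39.7% of probes. At 0.06 against 0 mg/kg/day (3 against 4 arrays) Fn1 alone had an unadjusted p under 0.05, at -0.57, where 3.40% of probes did, and 10 of 32 members lay above the mean, against 43.6%.

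Of the 32 genes 3 differed between slides at an adjusted p under 0.05, where 19.0% of probes did. Col2a1 averaged -5.79, -5.66 and -5.04 on slides 1, 2 and 3 (limma adjusted p = 2.26e-06). Col9a1 averaged -3.78, -3.79 and -3.17 (adjusted p = 5.42e-06). Both were highest on slide 3, while Col4a4 was lowest on slide 2. More members differed between slides at an unadjusted p under 0.05, the threshold used for dose. Among the 7 genes with such a p at 20 mg/kg/day, Col8a1 (limma unadjusted p = 0.0238), Bgn (0.0368) and Col16a1 (0.0393) did so. Col1a1 (0.0894), Col1a2, Col3a1 and Col15a1 did not. Within slides 1, 2 and 3 the difference between 20 and 0 mg/kg/day was 0.47, 0.34 and 0.52 for Col1a2, 0.84, 0.44 and 0.89 for Col1a1, 0.51, 0.45 and 0.51 for Col15a1, and 0.52, 0.21 and 0.45 for Bgn. It had the same sign on every slide for all 7 genes with an unadjusted p under 0.05. Those genes were picked on these same arrays, so this sameness of sign is no separate evidence. Slide 1 holds 1 array at 20 mg/kg/day and 2 controls, and slide 2 holds 1 of each. The difference turned sign for Col4a1, at -0.31, 0.00 and 0.38. Col2a1 (-0.14, -0.12 and -0.04) and Col9a1 (-0.06, -0.12 and -0.09) lay lower on every slide. Over all arrays both lay higher.

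Col1a1 and Col1a2 tracked each other closely from animal to animal. Over the 20 arrays their Pearson r was 0.946 and Spearman rho 0.937 (permutation p adjusted over 8 pairs 4e-05 for r and 8e-05 for rho), 0.927 without the 2 most distant arrays, and 0.942, 0.912 and 0.956 within slides. Col1a1 had an r of 0.867 and rho of 0.818 with Bgn, and of 0.773 and 0.814 with Col3a1, against 0.819 for Bgn and 0.693 for Col3a1 without the 2 most distant arrays. Its r with Col4a1 was 0.546 (rho 0.567; adjusted permutation p = 0.0183 and 0.014), but 0.385 without the 2 most distant arrays and 0.0538 within slide 1. Its r with Sparc was 0.453 (rho 0.37; adjusted permutation p = 0.0448 and 0.111). Col9a1 and Col9a2 had an r of 0.519 over all arrays but -0.195 once slide means were removed, with 0.0932, -0.484 and 0.454 within slides 1, 2 and 3. All pairs share arrays, doses and the scaling to the 75th percentile.

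The genes whose pattern was most like Col1a1, by Pearson r over the 20 arrays with slide means removed, were Col1a2 (0.945), Sec61b, Ptprv, Pycr1, Loxl1 (0.923), Phgdh, P4ha2 (0.914), Praf2, Col8a1 (0.907) and Cpz. P4ha2 is a prolyl hydroxylase subunit that modifies collagen chains and Loxl1 a crosslinking enzyme of the lysyl oxidase family. Col16a1 ranked 13 among all genes by this measure, Bgn 53 and Col3a1 264, whereas Col4a1 ranked 1304. The 10 genes most like Col4a1, led by Ptrhd1 (0.871), held no member, and Sparc ranked 52 with 0.765. Likeness is given without a test.

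Genes that make, trim and bind collagens were counted from lists. Over all probes, 57.9% lay higher at 20 than at 0 mg/kg/day. An unadjusted p under 0.05 was found for 2.70% with a higher value and for 4.55% in either direction. Of the 20 listed genes for folding and modification, 18 were measured, and 12 lay higher and 6 lower at 20 than at 0 mg/kg/day, with an unadjusted p under 0.05 for 1 higher and 2 lower. P3h2, a prolyl 3-hydroxylase, differed by -0.54 ± 0.16 (unadjusted p = 0.00363) and by -0.57 ± 0.16 at 60 mg/kg/day. There all 6 arrays lay below all controls, as they did for 0.245% of all probes. Fkbp10, a collagen chaperone, differed by 0.48 ± 0.17 (unadjusted p = 0.0117), and P4ha1, a prolyl 4-hydroxylase subunit, by -0.42 ± 0.20 (unadjusted p = 0.0468). Serpinh1, the procollagen chaperone HSP47, differed by 0.07 ± 0.19, and its r with Col1a1 over the 20 arrays was 0.703 (rho 0.653). None of these genes passed the test over all probes.

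Of 9 measured genes of 16 for cleavage and crosslinking, 7 lay higher and 2 lower at 20 than at 0 mg/kg/day, 2 with an unadjusted p under 0.05. Of all probes 57.9% lay higher, and 2.70% did so with such a p. Pcolce, which speeds the trimming of fibrillar procollagens, differed by 0.62 ± 0.22 at 20 mg/kg/day (unadjusted p = 0.0112; 4 of 5 arrays above all controls) and by 0.58 ± 0.21 at 60 (unadjusted p = 0.014). Its r with Col1a1 was 0.855 and rho 0.735, though 0.262 within slide 2. The lysyl oxidase relatives Loxl4 and Loxl1 differed by 1.03 ± 0.44 and 0.71 ± 0.34 (unadjusted p = 0.0307 and 0.0511), with only 1 of 5 Loxl4 arrays above all controls. Of 6 measured receptors of 10, 4 lay higher and none had an unadjusted p under 0.05 at 20 mg/kg/day. Ddr2, a receptor for fibrillar collagen, lay lower by -0.41 ± 0.22 at 20 mg/kg/day and by -0.60 ± 0.21 at 60 (unadjusted p = 0.0117).

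Of 9 measured basement membrane partners of 15, 5 lay higher and 4 lower at 20 mg/kg/day. Nid2, the linker nidogen 2, differed by 0.31 ± 0.11 (unadjusted p = 0.0125), the laminin gene Lamc3 by -0.33 ± 0.20 and Lamb3 by 1.01 ± 0.64. Of 20 measured other matrix genes of 28, 15 lay higher and 5 lower, with an unadjusted p under 0.05 for 4, all higher. Beside both lists, 57.9% of all probes lay higher, and 2.70% did so with such a p. Thrombospondin 2 (Thbs2), which shapes collagen fibres, differed by 0.90 ± 0.37 (unadjusted p = 0.0263), Mfap4 by 0.55 ± 0.25 and Ltbp2 by 0.47 ± 0.22. The median differences at 20 mg/kg/day were 0.06 for folding, 0.24 for cleavage and crosslinking, 0.12 for receptors, 0.13 for basement membrane partners and 0.09 for other matrix genes, beside 0.03 for all probes.

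Markers of other ovarian cells also lay to one side in the same comparison. At 20 against 0 mg/kg/day all 8 macrophage markers lay higher (median 0.50), and their mean level per array was 0.49 to 1.24 at 20 mg/kg/day and 0.10 to 0.92 at 0. All 8 smooth muscle markers lay higher too (median 0.36), with means of -0.12 to 0.37 at 20 mg/kg/day and -0.61 to 0.29 at 0. Of the 7 stromal fibroblast markers 5 lay higher (median 0.13), with means of -0.28 to 0.05 at 20 mg/kg/day and -0.28 to -0.03 at 0. Of 9 granulosa cell markers 7 lay lower (median -0.35), with means of 1.41 to 1.73 at 20 mg/kg/day and 1.71 to 2.15 at 0. All 5 oocyte markers lay lower (median -0.54), with means of -2.21 to -1.58 at 20 mg/kg/day and -1.70 to -0.75 at 0. All 8 endothelial markers lay lower as well (median -0.13), with means of -1.02 to -0.44 at 20 mg/kg/day and -0.77 to -0.46 at 0. At 60 mg/kg/day the macrophage markers again lay higher (8 of 8, median 0.53) and the stromal ones did not (2 of 7, median -0.12), nor did those of smooth muscle (3 of 8, median -0.03). At that dose all 5 oocyte markers lay higher (median 0.20) and all 8 endothelial markers lower (median -0.25), while 7 of 9 granulosa cell markers lay lower (median -0.12). Over all probes, 57.9% lay higher at 20 mg/kg/day than at 0, and 39.8% at 60. A limma unadjusted p under 0.05 at 20 mg/kg/day was found for 4 granulosa markers lower and 1 higher. It was also found for 3 macrophage and 1 smooth muscle marker, higher, 1 oocyte marker, lower, and 4.55% of all probes. At 60 mg/kg/day such a p was found for 5 macrophage and 1 granulosa marker, higher, and 1 granulosa and 1 stromal marker, lower. At that dose 2.82% of probes lay higher with such a p. None of these markers was called, and their part in the collagen differences was not tested.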

How the data were processed

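Total RNA (100 ng, Cy3) of 20 ovaries was hybridised to 1-colour Agilent arrays. Per the file headers, spot intensity is the processed signal deposited from Feature Extraction 11.5.1.1 (protocol GE1_1105_Oct12), background-subtracted. The authors' deposited value table, on a log2 scale, correlated with the scanner values at r 0.946 to 0.991 per array. Here the processed signal was averaged over a probe's spots not flagged as outliers. The log2 of this average minus the log2 of the array's 75th percentile was then taken. Of 30367 probes, the 23258 well above background on at least 4 arrays were kept, 14858 of them named through RefSeq's GRCr8 gene table. Groups were compared in 1 fit over all 20 arrays with limma 3.58.1 (R 4.3.3; lmFit, eBayes, Benjamini-Hochberg over all kept probes, threshold 0.05), tested on simulated data. Correlations used 100000 permutations (scipy 1.17.1).

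The members, lists and tests were chosen with earlier results of these data known. Genes given by array are 9 chosen by name plus, in each set, the 3 of smallest p in the joint test. Of each partner list up to 3 of smallest p at 20 mg/kg/day are named, plus Serpinh1. The scanner files hold no mean signal, so the normexp background correction used median signals. Alternatives were scaling, background correction, filter, the authors' table, slide, spike-in and replicate blocks, and each array left out. The file headers gave a spike-in slope of 0 on 9 of the 20 arrays, and the spike-in block parted these from the others. The number of arrays limits the precision. Of 12 marker lists, those not described in the report lay at 20 against 0 mg/kg/day as follows: 4 of 6 theca, 3 of 5 corpus luteum, 3 of 5 surface epithelium, 3 of 3 oviduct, 3 of 4 adipocyte and 4 of 4 erythrocyte markers lay lower.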

Additional observations from a re-analysis of the deposited data

Results flagged for a closer look

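Within the 128 groups formed by 32 genes and 4 doses, 8 held an array farther from the others than Dixon's 95% limit allows. Chance gives about 1 in 20 groups. Of the 8, 3 were on replicate 5 at 60 mg/kg/day, one of the 5 arrays lowest for Cyp17a1: Col4a1 at 4.01 (others 3.17 to 3.48), Sparc at 5.87 (others 5.13 to 5.40) and Eln at 1.86 (others 0.86 to 1.19). Replicate 1 at 60 mg/kg/day was low for Col16a1, at 1.85 (others 2.31 to 2.57), and high for Col26a1, at -4.94 (others -6.48 to -6.02). Col2a1 stood at -4.99 on replicate 6 at 60 mg/kg/day (others -5.97 to -5.61) and Col9a1 at -3.12 on replicate 5 at 0.06 mg/kg/day (others -3.80 to -3.74). Both genes differed between slides, and each of these arrays was the only one of its group on slide 3. Col4a4, which also differed between slides, stood at -3.58 on replicate 3 at 0 mg/kg/day (others -2.92 to -2.78). That array was the only control on slide 2 and is one of the 5 lowest for Cyp17a1. None of these was tested further.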

How the results depend on the processing

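No member was called under any alternative run, with or without each array (0 to 0). Of 2871 recomputed single-gene differences, 2869 kept their direction or moved by less than the spread between animals; Col9a2 and Col26a1 at 0.06 mg/kg/day moved, to 0.12 and -0.06, under normexp. At 20 against 0 mg/kg/day Col1a1, Col1a2, Col15a1, Col8a1 and Bgn had an unadjusted p under 0.05 in 30 of 30 alternatives, Col16a1 in 24 and Col3a1 in 10. The count of such genes was 5 with the authors' table and 11 without control replicate 3. At 60 mg/kg/day it was 1 without control replicate 1 and 6 without control replicate 3. Against 0.06 mg/kg/day at 20 it was 2 without 0.06 replicate 2. Between 60 and 0.06 mg/kg/day it was 0 with the spike-in block, beside 1 in the main fit. The trend count was 4 without control replicate 4. Fibrillar medians moved to 0.091 at 0.06 without 0.06 replicate 2, to 0.41 at 20 without control replicate 3, to -0.0092 and 0.36 at 20 within slides 2 and 3, and to 0.051 at 60 within slide 2. The basement membrane median moved to 0.035 at 0.06 within slide 3, to -0.32 at 20 within slide 1, and to 0.30 at 20 with collagens XV and XVIII counted in. The non-collagen median at 0.06 moved to -0.34 within slide 3. The causes were not tested.

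Leaving out each array in turn gave medians, at 0.06, at 20 and at 60 mg/kg/day, of -0.14 to 0.09, 0.17 to 0.41 and 0.14 to 0.21 for fibrillar, -0.18 to -0.06, -0.13 to -0.01 and -0.24 to -0.12 for basement membrane, -0.17 to 0.11, 0.21 to 0.34 and 0.09 to 0.21 for other collagens, and -0.12 to 0.03, 0.13 to 0.27 and 0.01 to 0.16 for non-collagen genes. Replicate numbers do not pair the animals: residuals of same-numbered arrays correlated at -0.31 to 0.34 over 27 pairs, and 1 of 19 arrays correlated best with its own number. With the replicate block no member was called, the lowest adjusted p being 0.132 at 60 against 20 mg/kg/day, and the fibrillar median at 20 was 0.21. Signal near background limits Col9a2, Col26a1 and Postn, which were not above background on every array. Col2a1 (-5.97 to -4.88), Col13a1 (-6.21 to -3.89) and Col23a1 (-5.90 to -4.65) were above it on all 20 arrays. Their levels were nonetheless low, like those of Postn (-6.85 to -4.13).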
